A study of Rattus norvegicus with 4 samples.

Results

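Non-dividing wound fibroblasts of the rat were examined in 4 single-cell RNA libraries of day 4 wound skin, and they came to 1904 of 32801 kept barcodes. Members were chosen by their counts of unique molecular identifiers (UMIs, each standing for 1 captured RNA molecule). A kept barcode had at least 1000 UMIs, at least 250 genes and at most 20% mitochondrial UMIs. A member gave at least 1% of its UMIs to Col1a1, Col1a2, Col3a1 and Dcn together and under 0.5% to Krt5 and Krt14. It also had under 2 UMIs of Rgs5, under 2 of Pax7, Myf5, Myod1 and Myog, and under 3 of the division genes Mki67 and Top2a. No gene was listed under the symbol Col1a2, so Col1a1, Col3a1 and Dcn carried the first step. Barcodes that met every step but the last, with 3 or more UMIs of Mki67 and Top2a, are called dividing fibroblasts here, and there were 663. In injected 1 and injected 2, taken from wounds injected with purified migrasomes, 714 and 486 members were found. In uninjected 1 and uninjected 2, taken from wounds in which nothing was injected, 288 and 416 members were found. Migrasomes are membrane bodies shed from the trailing fibres of moving cells, and the comparison addressed what such vesicles change in the cells of a wound. There was no mock injection, so the injection as such and the migrasomes in it cannot be told apart. Whether the libraries of a group came from separate animals is not stated, so the p-values cover only the variation from library to library, part of which may be technical.

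Fibroblasts are the cells that build the dermis: they secrete collagens, elastic fibres and proteoglycans, and the enzymes that assemble and remove them. In a fresh wound they are also sentinels. Interleukin 1, tumour necrosis factor and products of microbes or damaged cells switch on NF-kB and C/EBP factors in fibroblasts, which then release chemokines and growth factors that draw and sustain neutrophils and monocytes. Later, transforming growth factor beta and tension turn part of them into contractile myofibroblasts marked by smooth muscle actin. Granulocyte colony-stimulating factor, encoded by Csf3, is the main factor for the production and survival of neutrophils, and complement factor B, encoded by Cfb, is the protease of the alternative pathway of complement.

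The libraries held 75823418 to 105605297 UMIs over all barcodes, and the members alone held 14017338 and 9647523 UMIs in the injected libraries and 4163305 and 8968595 in the uninjected ones. Members had median depths of 19418 and 20671.5 UMIs in injected wounds, against 13232 and 22743.5 in uninjected wounds. Uninjected 1 stood apart: genes of ribosomal proteins took 14.2% of its members' UMIs, against 6.97% and 7.25% in the injected libraries and 8.02% in uninjected 2. Its log CPM correlated with those of the other libraries at 0.935 to 0.948 over 12608 genes, against 0.968 to 0.977 among the others. Values without this library are given beside many of the results they move. No member barcode was shared between libraries. The fibroblast markers bore out the label. Pdgfra, the growth factor receptor of mesenchymal cells and not used in the rule, had a UMI in 85.6% and 85.0% of members in injected wounds and in 87.2% and 85.8% in uninjected wounds, against 1.17% to 1.37% of the other kept barcodes. Summed macrophage markers came to 53.9 and 46.4 CPM (UMIs of a gene per 1000000 UMIs of the library's members) in injected wounds, against 35.5 and 56.1 CPM in uninjected wounds, and endothelial markers to 23.3 and 21.0 CPM in injected wounds, against 16.3 and 16.8 CPM in uninjected wounds. Of the endothelial markers, Cldn5 was at 0 in members of every library, and Kdr and Tek were the highest. Kdr was at 10.49 and 8.91 CPM in injected wounds, against 8.41 and 9.37 CPM in uninjected wounds. Tek was at 9.42 and 9.64 CPM in injected wounds, against 5.52 and 5.24 CPM in uninjected wounds. Tek exceeded its level in the other kept barcodes (2.03 to 6.18 CPM) in every library. The rest of the endothelial markers did not. Summed markers of mural cells, melanocytes and adipocytes were higher in members than in the other kept barcodes in every library. Mural markers came to 119 to 187 CPM in members and 57.6 to 169 CPM in the others. Mitf gave most of the melanocyte sum and Cfd most of the adipocyte sum. Summed neutrophil markers exceeded those of the other barcodes in injected wounds only, and are given with Lcn2 below. The neutrophil genes S100a8 and S100a9 together reached 22.9 and 18.5 CPM in injected wounds, against 87.7 and 34.2 CPM in uninjected wounds. Keratinocyte markers summed to 883 and 1487 CPM in injected wounds, against 1110 and 913 CPM in uninjected wounds, of which Krt17 gave 518 and 941 CPM in injected wounds, against 547 and 531 CPM in uninjected wounds. If all S100a8 and S100a9 in members were free RNA, at most 6.65% and 4.80% of their UMIs in injected wounds, and 3.00% and 4.87% in uninjected wounds, were free. The same bound is given for each gene whose level or change is described below and for which it exceeds 30% in a library. For Krt17 it reached 100%. A doublet caller marked 18.2% and 9.67% of members in injected wounds, against 13.2% and 17.6% in uninjected wounds. These were kept, and were left out in an alternative.

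Between 1% and 1.2% of UMIs in the collagen genes and Dcn were found in 9 and 5 members of the injected libraries and 11 and 18 of the uninjected ones. Just outside, at 0.8% to 1%, lay 11 and 9 barcodes in the injected libraries and 15 and 9 in the uninjected ones. These met all the other steps. More members lay at the division threshold: 61 and 48 members in injected wounds and 17 and 44 in uninjected wounds had 2 UMIs of Mki67 and Top2a, while 30 and 26 dividing cells in injected wounds and 11 and 41 in uninjected wounds had 3. Dividing cells were deeper than members, with median depths of 33870 and 31221 UMIs in injected wounds, against 28075.5 and 35586 UMIs in uninjected wounds.

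Non-dividing fibroblasts were a larger share of the kept barcodes in both injected libraries. The share was 7.25% (95% Wilson interval 6.75% to 7.78%) and 7.91% (7.26% to 8.61%) in injected wounds, against 3.68% (3.29% to 4.12%) and 4.63% (4.21% to 5.08%) in uninjected wounds. The means were 7.58% ± 0.469 in injected wounds and 4.16% ± 0.667 in uninjected wounds (SD, n = 2 each), and the exact two-sided permutation test gave p = 0.3333, the smallest it can give with 2 libraries against 2. These intervals cover counting error only, and a share of captured barcodes also moves with how many leukocytes and keratinocytes were captured beside them. The dividing share of all fibroblasts did not order the groups: it was 23.3% (20.7% to 26.1%) and 20.7% (17.7% to 24.1%) in injected wounds, against 18.6% (14.9% to 23.0%) and 37.8% (34.2% to 41.6%) in uninjected wounds. Its means were 22.01% ± 1.83 in injected wounds and 28.2% ± 13.6 in uninjected wounds (SD, n = 2 each), with an exact permutation p of 1. Without uninjected 2 the difference of −6.22 percentage points became 3.37, and without uninjected 1 it became −15.8. With each cell thinned to 5000 UMIs, 40 of 883 and 22 of 555 fibroblasts in injected wounds (4.53% and 3.96%) and 18 of 322 and 40 of 647 in uninjected wounds (5.59% and 6.18%) still met the division threshold, a difference of −1.64 points (exact permutation p = 0.3333).

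**Figure D1:**
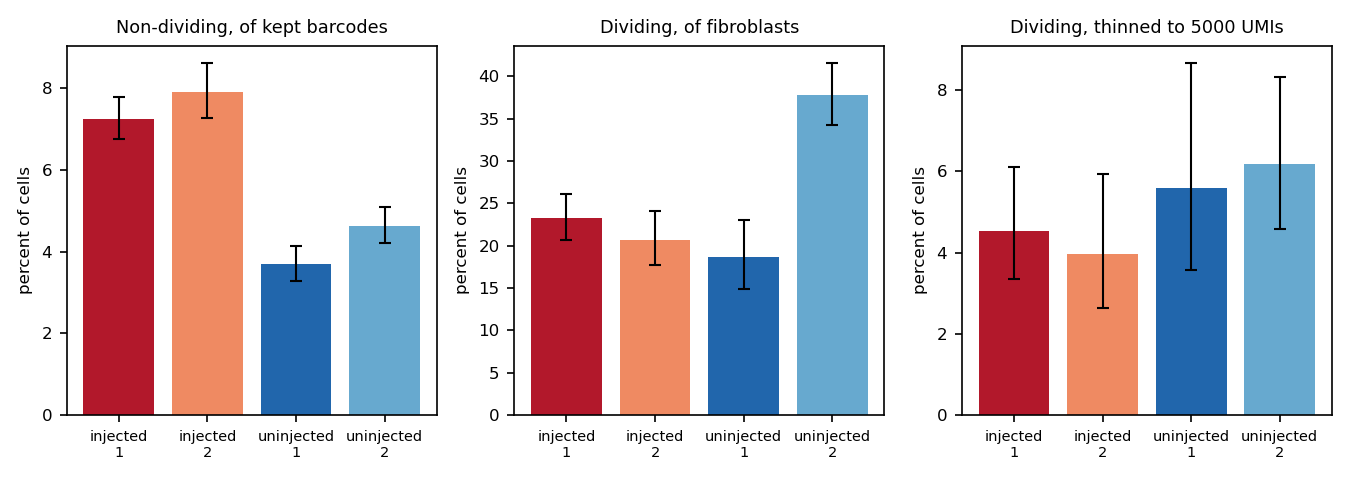
Percent of cells in each library, injected wounds in red and orange and uninjected wounds in blue, with 95% Wilson intervals as error bars. Non-dividing fibroblasts made up 7.25% and 7.91% of kept barcodes in injected wounds, against 3.68% and 4.63% in uninjected wounds. The dividing share of fibroblasts was highest in uninjected 2 (37.8%). At 5000 UMIs per cell fewer cells met the division threshold in every library. That share was 4.53% and 3.96% in injected wounds, against 5.59% and 6.18% in uninjected wounds.

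The level of each gene in non-dividing fibroblasts was compared between injected and uninjected wounds on UMIs summed over the cells of a library, with edgeR's quasi-likelihood test and Benjamini-Hochberg adjustment over 12608 genes. At an adjusted p under 0.05, 3 genes rose and 1 fell, 0.0317% of those tested. The factor for neutrophils Csf3 rose: it had 3284 and 2959 UMIs in injected wounds, against 103 and 307 UMIs in uninjected wounds. Its level was 242.5 and 304 CPM in injected wounds, against 26.2 and 31.7 CPM in uninjected wounds, with means of 273 ± 43.5 CPM in injected wounds and 29.0 ± 3.90 CPM in uninjected wounds (SD, n = 2 each; log2 change 3.23, SE 0.27, adjusted p = 0.0331). The injected libraries lay far above the uninjected ones, and both groups were tight. Complement factor B, Cfb, rose as much: it was at 384 and 368.5 CPM in injected wounds, against 42.2 and 39.1 CPM in uninjected wounds, with means of 376 ± 10.7 CPM in injected wounds and 40.7 ± 2.18 CPM in uninjected wounds (SD, n = 2 each; log2 change 3.21, SE 0.26, adjusted p = 0.0331). Cfb is also the symbol of a second listed identifier, and the values are those of ENSRNOG00000000419. The third gene to rise, LOC102556347, is known only by this identifier and had 96.5 and 153 CPM in injected wounds, against 10.4 and 9.92 CPM in uninjected wounds (log2 change 3.62, SE 0.31, adjusted p = 0.0331). Ier5l, which is related by sequence to the immediate early response gene Ier5, fell: it had 5.98 and 5.34 CPM in injected wounds, against 47.8 and 44.2 CPM in uninjected wounds (log2 change −3.02, SE 0.23, adjusted p = 0.0331). Over 15 alternative settings, Cfb and Csf3 passed in 14, Ier5l in 13 and LOC102556347 in 11. With members limited to those without a Mki67 or Top2a UMI none passed, and adjusted p was 0.0808 for Cfb and 0.109 for Csf3. The count of genes that passed moved more than their values. It was 119 by DESeq2, 674 with no filter on low counts, 9 without injected 1, 29 without injected 2, 6 without uninjected 1 and 622 without uninjected 2.

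These differences were also seen in how many cells held the gene. After thinning each cell to 1000 UMIs, Cfb had a UMI in 23.25% and 22.02% of members in injected wounds, against 2.08% and 3.12% in uninjected wounds, and in 0% to 0.96% of keratinocyte barcodes, which serve as a background. Unthinned, the shares were 67.9% and 63.4% in injected wounds, against 15.97% and 22.12% in uninjected wounds. Cfb was therefore spread over many members. Csf3 had a UMI in 9.94% and 11.7% of thinned members in injected wounds, against 0.69% and 2.16% in uninjected wounds, and in 5.28% and 1.79% of keratinocyte barcodes in injected wounds, against 2.23% and 1.93% in uninjected wounds. At most 7% of Csf3 in a library could be free RNA. Unthinned, 32.4% and 24.7% of members in injected wounds, against 5.90% and 7.93% in uninjected wounds, held Csf3. Ier5l had a UMI in 0.84% and 1.23% of thinned members in injected wounds, against 7.29% and 6.49% in uninjected wounds, and in 0.73% and 0.41% of keratinocyte barcodes in injected wounds, against 2.23% and 2.62% in uninjected wounds. Ier5l thus differed in the same direction in keratinocyte barcodes, so its lower share was not particular to members. Thinning took members with median depths of 13232 to 22743.5 UMIs, and keratinocyte barcodes with 16675 to 25031, to the same depth.

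**Figure D2:**
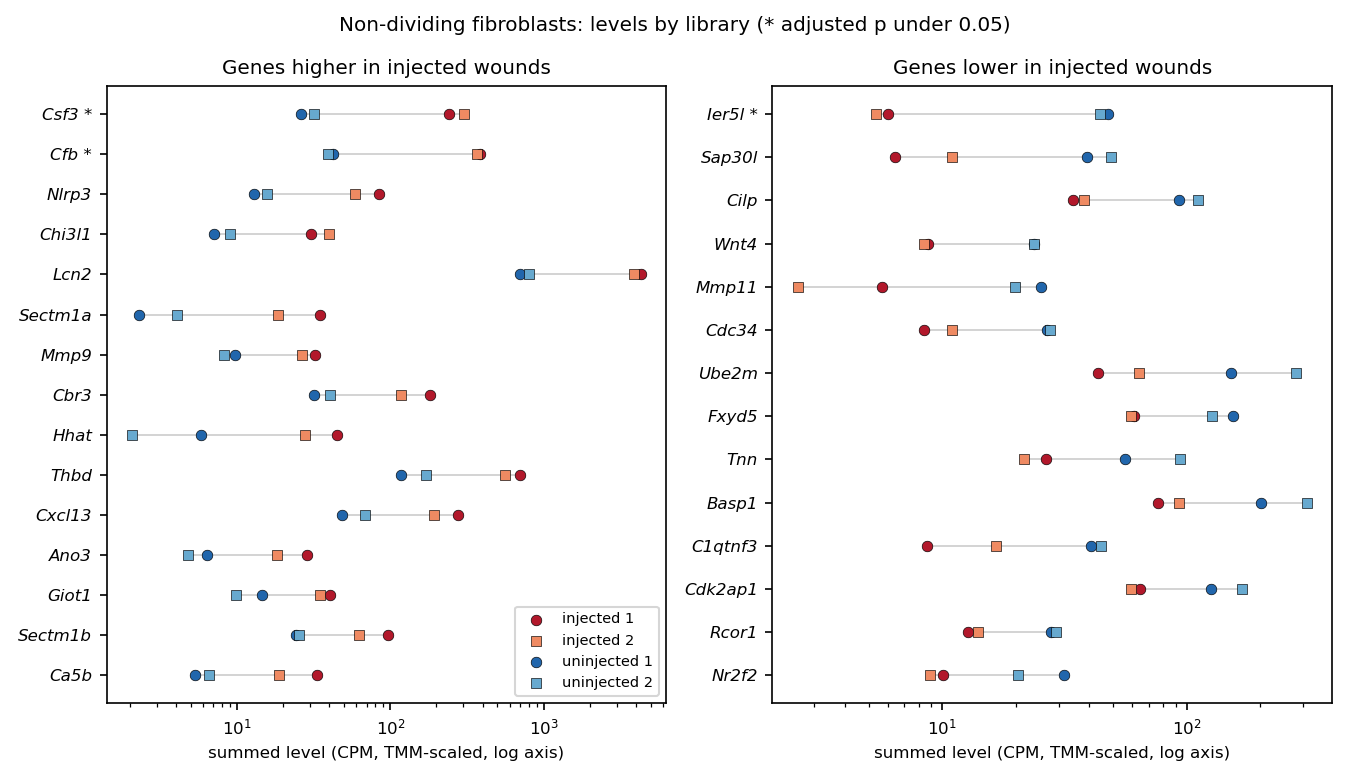
Level of each named gene in non-dividing fibroblasts (CPM, log axis), 1 point per library, with injected wounds in red and orange and uninjected wounds in blue. An asterisk marks Csf3 and Cfb, which rose, and Ier5l, which fell. The genes were chosen by p, so the lack of overlap between their groups follows largely from that choice. Over all genes tested, both injected libraries lay above both uninjected ones for 20.5% and below them for 20.2%.

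The genes next in order of p, among those with a symbol and a mean of 20 CPM or more in a group, did not pass. Their adjusted p by edgeR lay between 0.151 and 0.326, and their values are given as measured. Lcn2, the iron-siderophore binding protein of the acute phase, was at 4306 and 3905 CPM in injected wounds, against 702 and 807 CPM in uninjected wounds (log2 change 2.44). Lcn2 alone gave most of the summed neutrophil markers in members, 4248 and 4018 CPM in injected wounds, against 798 and 952 CPM in uninjected wounds. Its UMIs were spread over 56.6% and 55.6% of thinned members in injected wounds, against 17.4% and 22.1% in uninjected wounds, and 0.96% to 2.61% of keratinocyte barcodes. Chi3l1, a chitinase-like protein, was at 30.4 and 39.8 CPM in injected wounds, against 7.12 and 8.99 CPM in uninjected wounds. Nlrp3, the sensor of an inflammasome, was at 84.9 and 58.9 CPM in injected wounds, against 13.0 and 15.6 CPM in uninjected wounds, and up to 33.2% of it in a library could be free RNA. Thbd, the thrombin-binding cofactor thrombomodulin, was at 702 and 560.5 CPM in injected wounds, against 118 and 170.4 CPM in uninjected wounds, with a UMI in 27.9% and 24.3% of thinned members in injected wounds, against 8.33% and 12.3% in uninjected wounds. Cxcl13, the chemokine that draws B cells, was at 277.5 and 192 CPM in injected wounds, against 48.3 and 68.8 CPM in uninjected wounds (log2 change 2.00), with a UMI in 17.0% and 13.0% of thinned members in injected wounds, against 2.08% and 5.29% in uninjected wounds, and in at most 0.15% of keratinocyte barcodes. Mmp9, a gelatinase, was at 32.2 and 26.5 CPM in injected wounds, against 9.67 and 8.26 CPM in uninjected wounds, and up to 70.1% of it could be free RNA. Its share of thinned members, 3.22% and 2.06% in injected wounds, against 1.04% and 0.24% in uninjected wounds, was below that of keratinocyte barcodes (7.02% to 15.7%), and the source of these UMIs was not tested. The related Sectm1a and Sectm1b, whose reads may be split between them, differed by log2 changes of 3.00 and 1.67. Cbr3 (a carbonyl reductase), Hhat (the acyltransferase of hedgehog ligands), Ano3, Giot1 and the mitochondrial carbonic anhydrase Ca5b completed the higher genes, with log2 changes of 2.04, 3.34, 2.11, 1.65 and 2.09.

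Among the genes lower in injected wounds, Cilp, a glycoprotein of the cartilage and fibroblast matrix, was at 34.4 and 38.0 CPM in injected wounds, against 92.9 and 111.5 CPM in uninjected wounds (log2 change −1.50). Tnn, a tenascin, was at 26.5 and 21.7 CPM in injected wounds, against 56.0 and 93.8 CPM in uninjected wounds. Mmp11, a stromal metalloproteinase, was at 5.68 and 2.57 CPM in injected wounds, against 25.4 and 19.9 CPM in uninjected wounds. Wnt4, a secreted Wnt ligand, was at 8.79 and 8.43 CPM in injected wounds, against 23.7 and 23.8 CPM in uninjected wounds. C1qtnf3, a secreted relative of complement C1q and adiponectin, was at 8.64 and 16.6 CPM in injected wounds, against 40.7 and 44.5 CPM in uninjected wounds. None of these groups overlapped, which the choice by p makes likely, and none passed. The other lower genes included Sap30l and Rcor1 of corepressor complexes, the ubiquitin and NEDD8 conjugating enzymes Cdc34 and Ube2m, Fxyd5, Basp1, Cdk2ap1 and the nuclear receptor Nr2f2, with log2 changes of −2.35 to −1.10. Some of these differed the same way in keratinocyte barcodes: Sap30l had a UMI in 1.47% and 2.34% of thinned keratinocyte barcodes in injected wounds, against 10.0% and 12.1% in uninjected wounds, and Ube2m in 3.81% and 6.05% in injected wounds, against 19.0% and 27.7% in uninjected wounds.

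Gene lists of fibroblast and wound functions were then described, 29 in all. Over all 12608 genes tested, 6285 were higher and 6323 lower, with a median log2 change of −0.001. Both injected libraries lay above both uninjected ones for 20.5% of genes and below them for 20.2%. An unadjusted p under 0.05 was found for 617 of the 12608 genes upwards and 531 downwards. Each list is to be read against these shares. Apart from Csf3, Cfb and Ier5l, no list member passed the test over all genes, and the smallest adjusted p among the rest was 0.0797 for Ifit1. The list medians ran from −0.53 for mitotic genes to 0.87 for chemokines.

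**Figure D3:**
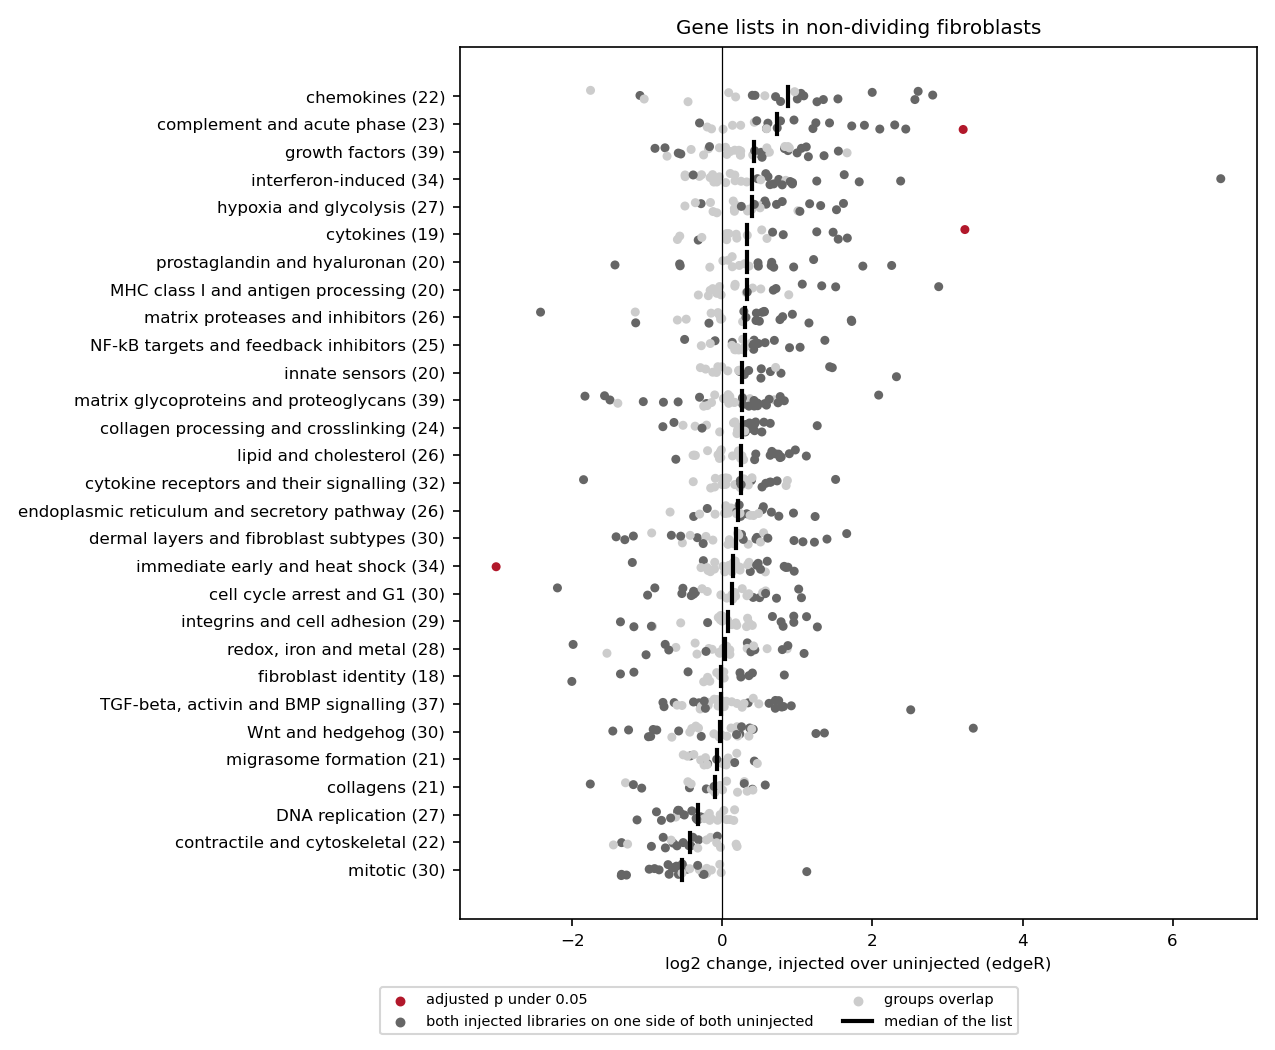
Log2 change of each tested list member in non-dividing fibroblasts, injected over uninjected wounds, with 1 point per gene, a black bar at each list's median and the number tested in brackets. Red points are Cfb, Csf3 and Ier5l, which passed the test, and dark grey points are genes whose groups do not overlap. Chemokines and complement lie furthest to the right, and mitotic, contractile and replication genes furthest to the left.

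Genes of complement and the acute phase were mostly higher in injected wounds beside Cfb. Of this list, 20 of the 23 tested members were higher and 3 lower, with a median log2 change of 0.73 (0.49 to 1.09 over the 15 settings). The groups did not overlap for 15 members higher in injected wounds and 1 lower. In the classical pathway, the protease gene C1s was at 818 and 735 CPM in injected wounds, against 520 and 388 CPM in uninjected wounds. C1r was at 989 and 924 CPM in injected wounds, against 682 and 574 CPM in uninjected wounds. C2, the counterpart of Cfb in the classical pathway, was at 16.6 and 16.3 CPM in injected wounds, against 4.58 and 5.27 CPM in uninjected wounds (log2 change 1.72). Serping1, the inhibitor of C1r and C1s, was at 675 and 516 CPM in injected wounds, against 330.5 and 172 CPM in uninjected wounds. The higher values thus included proteases and their inhibitor. C6 of the membrane attack complex was at 12.3 and 12.6 CPM in injected wounds, against 5.85 and 5.06 CPM in uninjected wounds. Haptoglobin, Hp, was near the detection limit at 11.2 and 5.24 CPM in injected wounds, against 1.02 and 2.07 CPM in uninjected wounds, and up to 48.3% of it could be free RNA.

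This list held the most members with an unadjusted p under 0.05 (12 higher and 0 lower), so its promoters were looked at for the sites of factors that switch on the acute phase. RefSeq on GRCr8 gave a promoter, from 250 bases before to 50 after the gene start, for 12 of the 23 tested members. Those of Chi3l1 (chr13:48193589-48193888, plus strand) and Lcn2 (chr3:36081731-36082030, minus strand), the members with the smallest p that had one, are shown with matches in capitals, and each reads 5′ to 3′ towards its gene.
Lcn2: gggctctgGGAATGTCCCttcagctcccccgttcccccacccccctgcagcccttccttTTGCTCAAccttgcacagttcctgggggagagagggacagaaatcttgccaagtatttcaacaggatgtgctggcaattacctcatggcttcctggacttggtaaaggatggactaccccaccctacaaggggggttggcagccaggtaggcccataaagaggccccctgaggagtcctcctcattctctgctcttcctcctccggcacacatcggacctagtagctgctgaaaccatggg
Chi3l1: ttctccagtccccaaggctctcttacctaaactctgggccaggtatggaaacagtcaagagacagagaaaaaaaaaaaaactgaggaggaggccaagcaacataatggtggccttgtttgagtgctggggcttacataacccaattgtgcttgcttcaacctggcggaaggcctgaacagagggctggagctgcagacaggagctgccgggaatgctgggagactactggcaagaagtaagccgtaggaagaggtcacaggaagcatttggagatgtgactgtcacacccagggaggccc
In Lcn2 the first capitals, at −242 to −233, are a kappa B match on the opposite strand (GGG, 3 free bases and TTCC) and the second, at −191 to −184, a C/EBP match (TTGCNNAA). Chi3l1 held none of the 6 motifs in this window. Over the 12 promoters, TTGCNNAA was found in 6 (Lcn2, C6, C3, C1r, Steap4 and Cp), against 10.5% of all 27457 promoters. This kappa B form was in 2 (Lcn2 and Steap4), against 5.36% of all, and the narrower form of GGG, 2 free bases and TTTCC, whose matches are also matches of the wider form, in 1 (Steap4), against 1.51%. The AP-1 letters TGANTCA were in 1 (Cfp), against 7.33%, the TATA letters TATAAA in 2 (C6 and Cp), against 14.3%, and the interferon response letters, GAAA, 2 free bases and GAAA, in 0, against 3.77%. Both strands were searched, and a match is a description of the letters only.

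Chemokine genes had the highest median of the lists. 18 of the 22 tested members were higher and 4 lower, with a median log2 change of 0.87 (0.72 to 1.21 over the 15 settings). The groups did not overlap for 14 members higher in injected wounds and 1 lower, and 10 had an unadjusted p under 0.05 upwards and 1 downwards. The neutrophil-drawing CXC ligands were among them: Cxcl1 was at 12590 and 9567 CPM in injected wounds, against 5587 and 5499 CPM in uninjected wounds. Cxcl3 was at 2699 and 2140 CPM in injected wounds, against 1155 and 749.5 CPM in uninjected wounds. Cxcl6 was at 1472 and 873 CPM in injected wounds, against 379 and 427 CPM in uninjected wounds. Every injected library was above every uninjected one for these genes, by log2 changes of 1.0, 1.35 and 1.54, and reads of such related genes may be shared. For Cxcl2, at 1332 and 1064 CPM in injected wounds, against 627 and 532 CPM in uninjected wounds, up to 53.7% could be free RNA. The monocyte-drawing Ccl2 was at 7771 and 9006 CPM in injected wounds, against 6505 and 5907 CPM in uninjected wounds. Ccl7 was at 1450 and 1920 CPM in injected wounds, against 908.5 and 680.4 CPM in uninjected wounds. Ccl20, which draws cells with the receptor Ccr6, was at 223 and 316 CPM in injected wounds, against 67.4 and 24.7 CPM in uninjected wounds. Ccl20 had the largest log2 change of these, 2.57. Ccl3, a product of leukocytes, was at 114 and 95.7 CPM in injected wounds, against 43.0 and 44.6 CPM in uninjected wounds, and up to 79.8% of it could be free RNA.

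Of the cytokines, 15 of the 19 tested members were higher and 4 lower, and Csf3 was the member that passed. The median log2 change was 0.33 (0.23 to 1.15 over the 15 settings). It was 0.65 without injected 2, 0.55 without uninjected 1 and 0.59 without uninjected 2. The value of 1.15 was with each cell thinned to 1000 UMIs, where 8 cytokines were tested. Il6, the inducer of the acute phase, was at 2779 and 1796 CPM in injected wounds, against 1044 and 869.8 CPM in uninjected wounds (log2 change 1.26). Il11, a relative of Il6 that acts on fibroblasts themselves, was at 315 and 248 CPM in injected wounds, against 65.4 and 112 CPM in uninjected wounds (log2 change 1.67). Lif, of the same family, was at 16.1 and 8.12 CPM in injected wounds, against 4.83 and 4.03 CPM in uninjected wounds. All 3 shared the direction of Csf3, with no overlap between groups. Il6 had a UMI in 69.5% and 53.7% of thinned members in injected wounds, against 35.1% and 36.5% in uninjected wounds, and 0.83% to 2.2% of keratinocyte barcodes. For Il1b and Il23a, up to 100% and 92.1% could be free RNA, so their values are not read. The macrophage markers given above overlapped between the groups.

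The receptors and intracellular arms of these signals were also mostly higher. Of cytokine receptors and their signalling, 25 of the 32 tested members were higher and 7 lower, with a median log2 change of 0.25 (0.11 to 0.33 over the 15 settings, with 0.11 without injected 1). Il1r1, the receptor of interleukin 1, was at 229.8 and 270.5 CPM in injected wounds, against 157.5 and 144 CPM in uninjected wounds. Il11ra1, the receptor of Il11, was at 119 and 128 CPM in injected wounds, against 75.8 and 82.2 CPM in uninjected wounds. Ackr3, a scavenging receptor of Cxcl12, was at 770 and 729 CPM in injected wounds, against 239 and 287 CPM in uninjected wounds (log2 change 1.51). Of NF-kB targets and feedback inhibitors, 21 of the 25 tested members were higher and 4 lower, with a median log2 change of 0.30 (0.16 to 0.42 over the 15 settings, with 0.16 without injected 1). The mitochondrial superoxide dismutase gene Sod2 was at 3575 and 3457 CPM in injected wounds, against 1599 and 1831 CPM in uninjected wounds. The NF-kB cofactor Nfkbiz was at 328.5 and 295 CPM in injected wounds, against 174 and 211 CPM in uninjected wounds. Ptx3, a soluble pattern recognition protein, was at 1560 and 781 CPM in injected wounds, against 321 and 587 CPM in uninjected wounds. Tnfaip6, which crosslinks hyaluronan, was at 7128 and 5686 CPM in injected wounds, against 2962 and 3928 CPM in uninjected wounds. The inhibitor Nfkbia, at 1431 and 1513 CPM in injected wounds, against 1022 and 1181 CPM in uninjected wounds, and Bcl3, at 25.9 and 23.9 CPM in injected wounds, against 38.2 and 32.8 CPM in uninjected wounds, differed less and in opposite directions. Of innate sensors, 14 of the 20 tested members were higher and 6 lower. The median log2 change was 0.26 (0.16 to 0.78 over the 15 settings, with 0.16 without injected 2). The value of 0.78 was with each cell thinned to 1000 UMIs, where 8 sensors were tested. Cd14, the co-receptor for lipopolysaccharide, was at 48.4 and 56.4 CPM in injected wounds, against 15.0 and 22.4 CPM in uninjected wounds. Tlr2 was at 11.1 and 11.0 CPM in injected wounds, against 2.29 and 5.37 CPM in uninjected wounds, of which up to 35% could be free RNA.

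Genes induced by interferon were higher at the median, with wide spread between libraries. 23 of the 34 tested members were higher and 11 lower, with a median log2 change of 0.40 (0.19 to 0.64 over the 15 settings, with 0.19 without injected 2 and 0.64 without uninjected 2). The groups did not overlap for 15 members higher in injected wounds and 1 lower. Irf7, a transcription factor of the interferon response, was at 153 and 101.5 CPM in injected wounds, against 25.4 and 45.8 CPM in uninjected wounds. Mx1, an antiviral GTPase, was at 118 and 66.2 CPM in injected wounds, against 6.62 and 27.5 CPM in uninjected wounds. Rsad2 was at 31.4 and 51.7 CPM in injected wounds, against 12.5 and 14.3 CPM in uninjected wounds. Uninjected 1 was the lowest library for all 3 genes. Ifit1 was at 10.0 and 7.09 CPM in injected wounds, against 0 and 0.103 CPM in uninjected wounds, with 0 and 1 UMIs in the uninjected libraries, and up to 100% of it could be free RNA. Of MHC class I and antigen processing genes, 13 of the 20 tested members were higher and 7 lower, with a median log2 change of 0.32 (0.09 to 0.50 over the 15 settings, with 0.09 without injected 1). RT1-A2, a class I heavy chain, was at 845 and 777 CPM in injected wounds, against 19.6 and 199 CPM in uninjected wounds. RT1-CE10 was at 213 and 276 CPM in injected wounds, against 71.0 and 100.3 CPM in uninjected wounds. Reads of these near-identical genes can be split between copies and alleles, so single members are uncertain. Dendritic cell markers in members summed to 83.9 and 67.8 CPM in injected wounds, against 27.4 and 75.0 CPM in uninjected wounds, and their part in this list was not tested.

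Among mediators made from lipids and sugars, prostaglandin and hyaluronan genes were mostly higher: 16 of the 20 tested members were higher and 4 lower, with a median log2 change of 0.33 (0.28 to 0.47 over the 15 settings). Ptgs2, the inducible cyclooxygenase, was at 3114 and 2289 CPM in injected wounds, against 1194 and 1131 CPM in uninjected wounds. Ptges, the prostaglandin E synthase that follows it, was at 638 and 261 CPM in injected wounds, against 85.5 and 159.5 CPM in uninjected wounds. Of the hyaluronan synthase genes, Has1 was at 1312 and 1633 CPM in injected wounds, against 864 and 968 CPM in uninjected wounds. Has2 was at 569 and 388 CPM in injected wounds, against 292 and 317 CPM in uninjected wounds. Ugdh, which makes their substrate, was at 2064 and 1662 CPM in injected wounds, against 725 and 1203 CPM in uninjected wounds. Ptgs2, Ptges, Has1, Has2 and Ugdh, named for small p or high mean, had no overlap between the groups. Over the whole list, the groups did not overlap for 9 members higher in injected wounds and 3 lower. Of hypoxia and glycolysis genes, 21 of the 27 tested members were higher and 6 lower, with a median log2 change of 0.39 (0.14 to 0.81 over the 15 settings, with 0.14 without injected 1, 0.15 without uninjected 1 and 0.81 without uninjected 2). Adm, the vasodilator adrenomedullin, was at 466 and 238 CPM in injected wounds, against 137 and 147 CPM in uninjected wounds. Slc2a1, a glucose transporter, was at 316 and 160 CPM in injected wounds, against 85.7 and 126 CPM in uninjected wounds. Injected 1 was the highest library for both.

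Growth factor genes were mostly higher in injected wounds. 29 of the 39 tested members were higher and 10 lower, with a median log2 change of 0.43 (0.15 to 0.54 over the 15 settings, with 0.15 without injected 2). The groups did not overlap for 12 members higher in injected wounds and 5 lower. Vegfa, which drives vessel growth, was at 1231 and 917 CPM in injected wounds, against 557 and 519 CPM in uninjected wounds. Ereg, a ligand of the epidermal growth factor receptor, was at 285.5 and 309.6 CPM in injected wounds, against 160 and 114.5 CPM in uninjected wounds. Fgf7, which acts on keratinocytes, was at 229 and 97.6 CPM in injected wounds, against 64.6 and 63.2 CPM in uninjected wounds. Kitlg, the ligand of the mast cell receptor Kit, went the other way at 372 and 399 CPM in injected wounds, against 614 and 517.5 CPM in uninjected wounds. Mast cell markers in members were at 28.8 and 37.9 CPM in injected wounds, against 24.3 and 16.5 CPM in uninjected wounds. Hdc, which makes histamine, gave most of this sum, 26.25 and 35.55 CPM in injected wounds, against 22.34 and 12.71 CPM in uninjected wounds, while Cpa3, Tpsb2, Tpsab1 and Ms4a2 were at 0 to 0.93 CPM.

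Collagen genes were split between higher and lower. Of collagens, 9 of the 21 tested members were higher and 12 lower, with a median log2 change of −0.10 (−0.18 to −0.05 over the 15 settings, with −0.17 without injected 1 and −0.16 without uninjected 2). Both injected libraries lay below both uninjected ones for 6 members and above them for 3. Col15a1, of the basement membrane zone, was at 111 and 107 CPM in injected wounds, against 367 and 129.7 CPM in uninjected wounds. Col11a1, which nucleates fibrils, was at 13.3 and 14.7 CPM in injected wounds, against 74.0 and 22.3 CPM in uninjected wounds. Col7a1, of anchoring fibrils, was at 20.2 and 32.3 CPM in injected wounds, against 68.2 and 42.7 CPM in uninjected wounds. Uninjected 1 was the highest library for all 3. Col14a1, a fibril-associated collagen, was at 219 and 214 CPM in injected wounds, against 163 and 128.5 CPM in uninjected wounds. Of collagen processing genes, 17 of the 24 tested members were higher and 7 lower, with a median log2 change of 0.26 (0.20 to 0.31 over the 15 settings), and Plod2, a lysyl hydroxylase, was lower at 151.5 and 124 CPM in injected wounds, against 202 and 229 CPM in uninjected wounds. Tll1, which cleaves procollagen, was higher at 291 and 113 CPM in injected wounds, against 60.3 and 107.5 CPM in uninjected wounds. Of matrix glycoproteins, 26 of the 39 tested members were higher and 13 lower, with a median log2 change of 0.26 (0.06 to 0.41 over the 15 settings, with 0.17 without injected 1, 0.41 without uninjected 1 and 0.08 without uninjected 2). Elastin, Eln, was at 122 and 126 CPM in injected wounds, against 319 and 196 CPM in uninjected wounds. Ltbp4, which guides its assembly, was at 13.2 and 17.2 CPM in injected wounds, against 77.1 and 32.0 CPM in uninjected wounds. Fbln1, a fibulin that binds elastic fibres, was higher at 178 and 147 CPM in injected wounds, against 108 and 76.4 CPM in uninjected wounds. Of proteases and inhibitors, 15 of the 26 tested members were higher and 11 lower, with a median log2 change of 0.30 (0.02 to 0.38 over the 15 settings). Without uninjected 1, 20 of 26 were higher and 6 lower, with a median of 0.38. Timp1, an inhibitor of metalloproteinases, was at 13870 and 11690 CPM in injected wounds, against 9031 and 5612 CPM in uninjected wounds. Adamts4, an aggrecanase, was at 166 and 122 CPM in injected wounds, against 91.1 and 60.5 CPM in uninjected wounds.

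Contractile and cytoskeletal genes were lower in injected wounds. 2 of the 22 tested members were higher and 20 lower, with a median log2 change of −0.43 (−0.58 to −0.31 over the 15 settings). The groups did not overlap for 0 members higher in injected wounds and 12 lower. The median was −0.31 without uninjected 1, with 17 of 22 lower. Acta2, the smooth muscle actin of myofibroblasts, was at 53.5 and 31.8 CPM in injected wounds, against 103 and 113.5 CPM in uninjected wounds (log2 change −1.34). Of the tropomyosin genes, Tpm1 was at 247 and 206 CPM in injected wounds, against 358 and 332 CPM in uninjected wounds. Tpm2 was at 172 and 148 CPM in injected wounds, against 241 and 311.5 CPM in uninjected wounds. Actn1, an actinin, was at 95.5 and 92.4 CPM in injected wounds, against 155 and 162.5 CPM in uninjected wounds. Every injected library was below every uninjected one for these 4 genes. Summed markers of mural cells came to 187 and 135 CPM in injected wounds, against 119 and 130 CPM in uninjected wounds. No gene of the contractile list is among these markers. Steap4, also a member of the acute phase list, gave the largest part. It was at 66.0 and 69.6 CPM in injected wounds, against 43.2 and 75.0 CPM in uninjected wounds.

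General fibroblast genes lay near 0 at the median: of the identity list, 8 of the 18 tested members were higher and 10 lower, with a median log2 change of −0.02 (−0.27 to 0.24 over the 15 settings, with 0.24 without uninjected 1 and −0.27 without uninjected 2). Uninjected 1 was the highest library for its lowest members: S100a4, a calcium-binding protein, was at 531 and 568 CPM in injected wounds, against 3551 and 863 CPM in uninjected wounds. Thy1, a surface glycoprotein, was at 15.0 and 22.9 CPM in injected wounds, against 74.5 and 23.9 CPM in uninjected wounds. Among genes of dermal layers and fibroblast subtypes, 18 of the 30 tested members were higher and 12 lower, with a median log2 change of 0.18 (−0.22 to 0.40 over the 15 settings, with 0.10 without injected 1, 0.40 without uninjected 1 and −0.22 without uninjected 2). Penk, the enkephalin precursor, was at 459 and 312 CPM in injected wounds, against 144.5 and 149 CPM in uninjected wounds. Plac8 was at 299.8 and 294 CPM in injected wounds, against 151 and 131 CPM in uninjected wounds. Ccn3, a matricellular protein, was at 211 and 431 CPM in injected wounds, against 83.5 and 119.7 CPM in uninjected wounds. Pi16, a marker of fibroblasts of the fascia and adventitia, was at 42.2 and 58.4 CPM in injected wounds, against 32.8 and 11.4 CPM in uninjected wounds. Apcdd1, a Wnt inhibitor of the upper dermis, was lower at 8.56 and 13.7 CPM in injected wounds, against 24.2 and 30.1 CPM in uninjected wounds.

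Signals of repair differed gene by gene. Of TGF-beta, activin and BMP signalling, 17 of the 37 tested members were higher and 20 lower, with a median log2 change of −0.02 (−0.07 to 0.24 over the 15 settings, with 0.04 without injected 2 and 0.24 without uninjected 1). Nog, the secreted BMP antagonist noggin, was at 97.2 and 134 CPM in injected wounds, against 10.7 and 28.8 CPM in uninjected wounds (log2 change 2.51). Id1, a direct target of BMP signals, was at 69.0 and 67.8 CPM in injected wounds, against 117 and 119.6 CPM in uninjected wounds (log2 change −0.79). Inhba, the activin subunit, was at 664 and 556 CPM in injected wounds, against 275 and 370.1 CPM in uninjected wounds. Tgfb3 was at 10.9 and 8.94 CPM in injected wounds, against 19.3 and 15.1 CPM in uninjected wounds. Of Wnt and hedgehog genes, 14 of the 30 tested members were higher and 16 lower, with a median log2 change of −0.03 (−0.20 to 0.19 over the 15 settings, with −0.10 without injected 1, 0.04 without injected 2, 0.19 without uninjected 1 and −0.20 without uninjected 2). Beside Wnt4, the ligand Wnt5a was lower at 10.8 and 14.4 CPM in injected wounds, against 26.2 and 20.1 CPM in uninjected wounds. Sfrp2, a secreted Wnt modulator, was higher at 1087 and 848 CPM in injected wounds, against 270.2 and 483 CPM in uninjected wounds.

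The immediate early, secretory, lipid and redox lists had medians between 0.03 and 0.25. Immediate early and heat shock genes had 25 of 34 members higher, with a median log2 change of 0.14 (0.07 to 0.26 over the 15 settings, with 0.26 without injected 1 and 0.07 without injected 2). Junb, of the AP-1 factors, was at 2820 and 3188 CPM in injected wounds, against 1503 and 1776 CPM in uninjected wounds. The heat shock gene Hspa1b was at 2119 and 2798 CPM in injected wounds, against 1219 and 1313 CPM in uninjected wounds, opposite in direction to Ier5l. Of endoplasmic reticulum and secretory genes, 21 of the 26 tested members were higher and 5 lower, with a median log2 change of 0.21 (0.10 to 0.42 over the 15 settings, with 0.10 without uninjected 1 and 0.42 without uninjected 2). Trib3, induced by unfolded proteins, was at 37.9 and 37.7 CPM in injected wounds, against 12.0 and 19.5 CPM in uninjected wounds. Herpud1, also induced by them, was at 232 and 289.9 CPM in injected wounds, against 118 and 152 CPM in uninjected wounds. Of lipid and cholesterol genes, 16 of the 26 tested members were higher and 10 lower, with a median log2 change of 0.25 (0.23 to 0.44 over the 15 settings, with 0.44 without uninjected 1). Cebpd, a C/EBP factor of the acute phase, was at 458 and 427 CPM in injected wounds, against 233 and 218 CPM in uninjected wounds. Apoe was at 2025 and 1800 CPM in injected wounds, against 806 and 955 CPM in uninjected wounds, of which up to 35.7% could be free RNA. Of redox, iron and metal genes, 15 of the 28 tested members were higher and 13 lower, with a median log2 change of 0.03 (−0.20 to 0.19 over the 15 settings, with −0.11 without injected 1, −0.03 without injected 2, 0.19 without uninjected 1 and −0.20 without uninjected 2). Txn1, thioredoxin, was at 222 and 248 CPM in injected wounds, against 1573 and 296 CPM in uninjected wounds, with uninjected 1 apart from the other 3 libraries.

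Genes of the cell cycle were lower in the non-dividing class of injected wounds. The rule removed cells with 3 or more UMIs of Mki67 and Top2a, so these lists are not independent of it. The part of depth and of the share of dividing cells was not tested. Of mitotic genes, 1 of the 30 tested members was higher and 29 lower, with a median log2 change of −0.53 (−0.57 to −0.24 over the 15 settings), and of DNA replication genes, 5 of the 27 tested members were higher and 22 lower, with a median log2 change of −0.33 (−0.49 to −0.11 over the 15 settings). Cenpf, a kinetochore protein, was at 6.13 and 7.09 CPM in injected wounds, against 19.3 and 14.6 CPM in uninjected wounds. Tpx2, a spindle protein, was at 5.98 and 6.37 CPM in injected wounds, against 16.3 and 13.8 CPM in uninjected wounds. Prim1, a primase subunit, was at 23.3 and 27.3 CPM in injected wounds, against 42.7 and 50.1 CPM in uninjected wounds. The mitotic median was −0.48 without uninjected 1. With each cell thinned to 1000 UMIs it was −0.375, over the 4 mitotic genes tested there. Among members without any Mki67 or Top2a UMI it was −0.52. Of the members, 535 of 714 and 354 of 486 in injected wounds, against 228 of 288 and 291 of 416 in uninjected wounds, had no such UMI. Of arrest and G1 genes, 18 of the 30 tested members were higher and 12 lower, with a median log2 change of 0.13 (−0.005 to 0.25 over the 15 settings, with 0.08 without injected 1, 0.08 without injected 2, −0.005 without uninjected 1 and 0.25 without uninjected 2). Cdkn1c, a cyclin-dependent kinase inhibitor, was at 106.5 and 80.7 CPM in injected wounds, against 58.3 and 34.9 CPM in uninjected wounds, while Ccnd1, cyclin D1, was at 15.2 and 22.9 CPM in injected wounds, against 36.4 and 39.4 CPM in uninjected wounds.

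Genes of migrasome formation, which the injected vesicles bring into question, showed no member at an unadjusted p under 0.05 in either direction. Over all 12608 genes, 617 higher and 531 lower had such a p. Few would therefore be met among 21 members, and their absence is not read as a result. 8 of the 21 tested members were higher and 13 lower, with a median log2 change of −0.08 (−0.21 to 0.015 over the 15 settings, with −0.21 without injected 1 and 0.015 without uninjected 2). Cd63, a tetraspanin, was at 3300 and 3486 CPM in injected wounds, against 2976 and 3083 CPM in uninjected wounds. Itgb1, the integrin beta subunit of retraction fibres, was at 615 and 592 CPM in injected wounds, against 691 and 692 CPM in uninjected wounds. Of integrins and adhesion genes, 16 of the 29 tested members were higher and 13 lower, with a median log2 change of 0.07 (−0.03 to 0.26 over the 15 settings, with 0.26 without injected 2 and 0.17 without uninjected 1). Cdh2, N-cadherin, was at 67.8 and 37.0 CPM in injected wounds, against 24.2 and 19.7 CPM in uninjected wounds. Cdh11, the cadherin of fibroblasts, was at 35.2 and 35.1 CPM in injected wounds, against 105 and 54.9 CPM in uninjected wounds.

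Dividing fibroblasts of the same libraries were tested in the same way, to set the changes of both classes side by side. None of 11625 genes passed (0%), with 1094 at an unadjusted p under 0.05 and 71 called by DESeq2. These sums rested on 217 and 127 cells in injected wounds and 66 and 253 in uninjected wounds. The genes that changed in non-dividing cells were displaced the same way in dividing ones: Csf3 was at 267 and 266 CPM in injected wounds, against 3.08 and 26.5 CPM in uninjected wounds (log2 change 3.96), and Ier5l differed by a log2 change of −2.89. Cfb was at 95.8 and 143 CPM in injected wounds, against 12.3 and 6.75 CPM in uninjected wounds (log2 change 3.78, adjusted p = 0.0539 by edgeR). The direct test, in which the injected-over-uninjected change was allowed to differ between the classes within libraries, called 0 of 12926 genes (0%), with 726 at an unadjusted p under 0.05 and 12 called by DESeq2. Between 57 and 104 genes passed when 1 library was left out. By list, dividing cells had for complement and the acute phase 21 of 23 higher and 2 lower (median 0.98), for chemokines 16 of 17 higher and 1 lower (median 1.08) and for contractile genes 3 of 21 higher and 18 lower (median −0.35). Interferon-induced genes, higher at the median in non-dividing cells, had 14 of 34 higher and 20 lower (median −0.12) in dividing cells. Collagens had 13 of 21 higher and 8 lower (median 0.13), and integrins 18 of 26 higher and 8 lower (median 0.42). The difference between the classes over a list was not tested.

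The 10 genes with the smallest p for such a difference did not pass. Slpi, a secreted inhibitor of neutrophil elastase, had 2035 and 1388 CPM in injected wounds, against 2083 and 315.5 CPM in uninjected wounds, in non-dividing cells, and 1804 and 967 CPM in injected wounds, against 579.8 and 108 CPM in uninjected wounds, in dividing cells (difference of log2 changes −1.35, SE 0.15, adjusted p = 0.0788). Within non-dividing cells the groups overlapped for Slpi, through uninjected 1. Cxcl2 had 1345 and 1075 CPM in injected wounds, against 632 and 537 CPM in uninjected wounds, in non-dividing cells, and 1183 and 1033 CPM in injected wounds, against 299 and 278 CPM in uninjected wounds, in dividing cells (difference of log2 changes −0.89, SE 0.12, adjusted p = 0.109). Eln had 123 and 127 CPM in injected wounds, against 322 and 197.5 CPM in uninjected wounds, in non-dividing cells, and 39.6 and 71.3 CPM in injected wounds, against 36.3 and 26.4 CPM in uninjected wounds, in dividing cells (difference of log2 changes −1.75, SE 0.25, adjusted p = 0.109). For Eln, the injected libraries lay below the uninjected ones in non-dividing cells and above them in dividing cells. Cilp had 34.7 and 38.4 CPM in injected wounds, against 93.7 and 112.5 CPM in uninjected wounds, in non-dividing cells, and 2.96 and 7.01 CPM in injected wounds, against 0.605 and 1.84 CPM in uninjected wounds, in dividing cells. Igfbp2, a binding protein of insulin-like growth factors, had 10.4 and 45.4 CPM in injected wounds, against 73.4 and 149 CPM in uninjected wounds, in non-dividing cells, and 1.88 and 3.14 CPM in injected wounds, against 0.605 and 1.33 CPM in uninjected wounds, in dividing cells. Both were lower in dividing cells in every library. The differences were −3.06 for Cilp and −3.55 for Igfbp2, and each had 1 UMI in the dividing cells of uninjected 1. Those of Entpd1, Hist1h2bo, Krt17, Nmu and Fam107b were −2.13, 1.11, −1.12, 2.53 and −1.74, all at adjusted p = 0.109 by edgeR. Up to 100% of Krt17 and 30.8% of Fam107b in non-dividing cells could be free RNA.

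**Figure D4:**
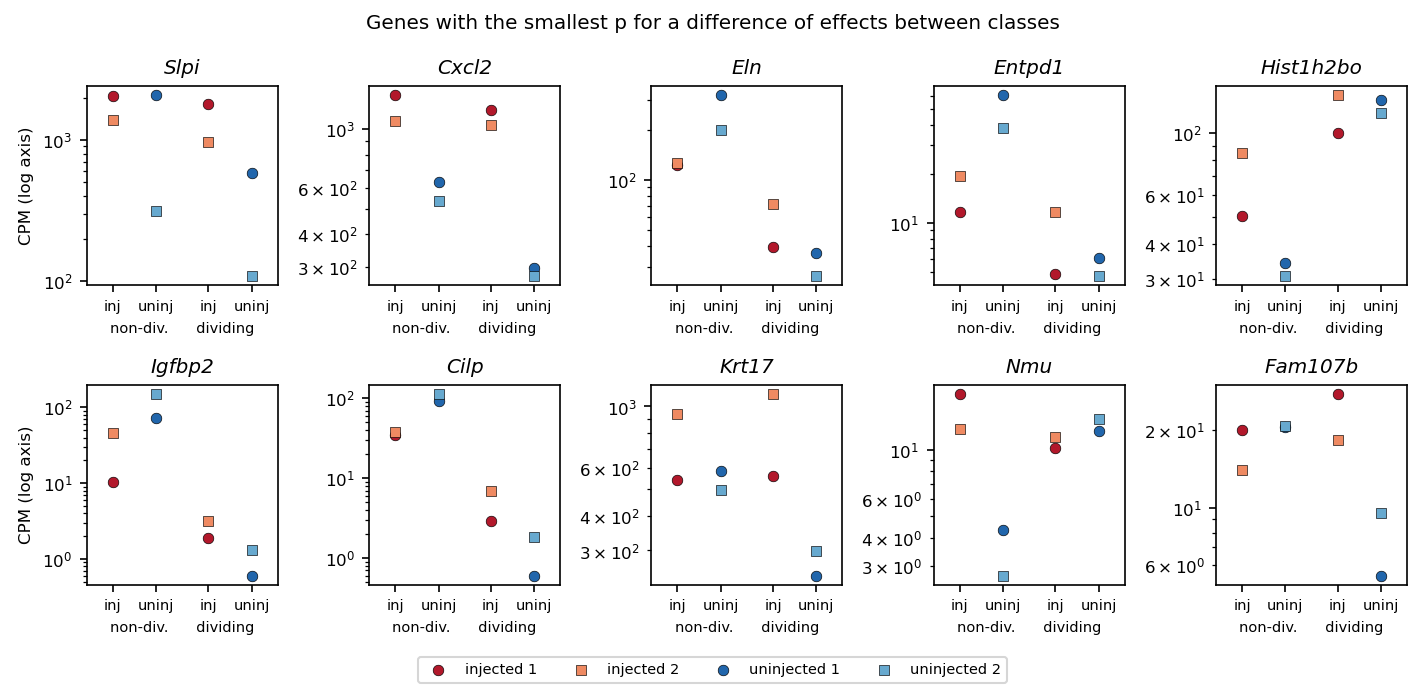
Level (CPM, log axis) of the 10 genes with the smallest p for a difference of effects, in non-dividing cells at the left and dividing cells at the right of each panel, 1 point per library. In Slpi the dividing cells of injected wounds (967 to 1804 CPM) lie above those of uninjected wounds (108 to 580 CPM), whereas non-dividing cells overlap, and in Eln the non-dividing cells of injected wounds (123 and 127 CPM) lie below those of uninjected wounds (198 to 322 CPM).

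Non-dividing cells were then set beside dividing fibroblasts of the same library. Division genes chose the classes, so these ratios are a description with no test. Of 6070 genes with a mean of 20 CPM or more in a class, 36 (0.593%) were at least 2-fold higher in non-dividing cells in all 4 libraries and 114 (1.88%) at least 2-fold lower, and 1250 were higher and 2125 lower by any amount in all 4. Gas6, a ligand of the TAM receptors named for growth arrest, averaged 155 CPM in non-dividing cells and 33.3 CPM in dividing cells, with log2 ratios of 2.67, 1.84, 2.55 and 1.69 in injected 1, injected 2, uninjected 1 and uninjected 2. Cilp had log2 ratios of 3.45, 2.37 and 5.88, and Igfbp2 of 2.35, 3.74 and 6.74, in injected 1, injected 2 and uninjected 2. In uninjected 1, Cilp was at 87.7 CPM and Igfbp2 at 68.7 CPM in non-dividing cells, and each had 1 UMI (0.549 CPM) in dividing cells, so no ratio is given. Cfb, which rose in injected wounds, averaged 206 CPM in non-dividing cells and 65.1 CPM in dividing cells. Ccn5, a matricellular protein, Egflam, Scara5, a scavenger receptor, Slfn5, Cyp4b1, Fgf23, Abca8a and Mup5 made up the other genes farthest apart upwards. Of these, Mup5 had 1 UMI in dividing cells of uninjected 1 and 3 in those of injected 2, and Fgf23 had 3 in those of uninjected 2. Farthest apart downwards, Ube2c averaged 14.7 CPM in non-dividing cells and 198 CPM in dividing cells, and Plk1, Nusap1, Depdc1, Racgap1, Cdk1, Kifc1, Kif4a, Kif20b, Spc25, Kif2c and Cenpe had log2 ratios of −2.50 or lower in every library. Up to 43.9% of Plk1, 36.1% of Racgap1 and 31.3% of Cdk1 in non-dividing cells could be free RNA.

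**Figure D5:**
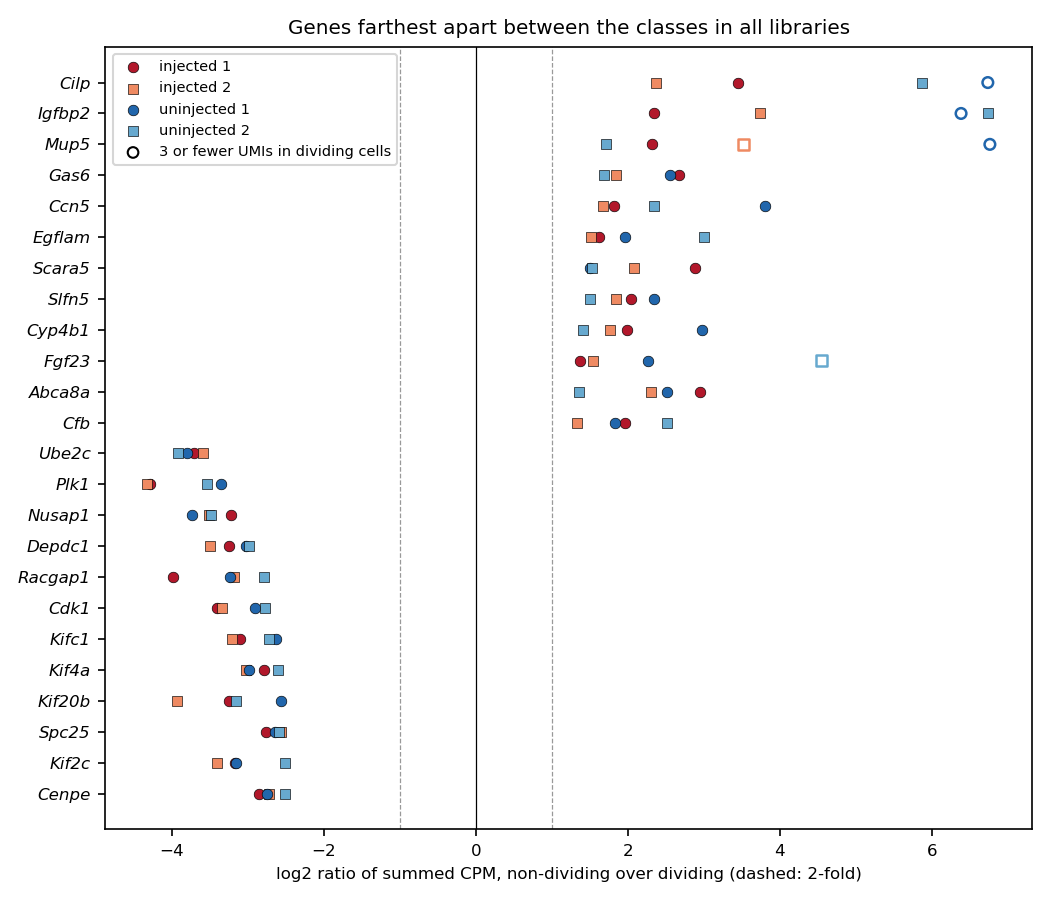
Log2 ratio of summed CPM, non-dividing over dividing fibroblasts, for the 12 genes farthest apart in each direction, 1 point per library, with dashed lines at 2-fold. Open symbols mark 3 or fewer UMIs in the dividing cells. The 12 higher genes lie beyond 2-fold in every library, and the 12 lower genes lie between −4.32 and −2.50 in every library.

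The lists, here without the genes of the rule, are set beside the median ratio of all genes, −0.06. Of complement and acute phase genes, 11 of 14 members were higher and 0 lower in all 4 libraries (median log2 ratio 1.02). Of chemokines, 5 of 15 members were higher and 0 lower in all 4 libraries (median log2 ratio 0.55): Cxcl12, which holds leukocytes and stem cells in tissue, averaged 662 CPM in non-dividing cells and 245 CPM in dividing cells. Of growth factors, 12 of 26 members were higher and 4 lower in all 4 libraries (median log2 ratio 0.19), and Igf1, an insulin-like growth factor, averaged 224 CPM in non-dividing cells and 90.7 CPM in dividing cells. Cxcl12 and Igf1 were chosen for mention after their values were seen. Of matrix glycoproteins, 22 of 35 members were higher and 5 lower in all 4 libraries (median log2 ratio 0.37), and of collagens, 8 of 16 members were higher and 3 lower in all 4 libraries (median log2 ratio 0.27). Of dermal subtype genes, 11 of 20 members were higher and 2 lower in all 4 libraries (median log2 ratio 0.47). Of endoplasmic reticulum and secretory genes, however, 2 of 23 members were higher and 11 lower in all 4 libraries (median log2 ratio −0.20). Arrest and G1 genes were split: 7 of 20 members were higher and 8 lower in all 4 libraries (median log2 ratio 0.00). Cdkn1c and Gadd45a were higher in non-dividing cells, with log2 ratios of 2.33, 0.62, 1.58 and 1.86 for Cdkn1c and of 0.57, 0.46, 0.56 and 0.62 for Gadd45a. Cdkn1a, the p53 target that halts the cycle, was lower, at −0.66, −0.76, −0.33 and −0.98. All 29 mitotic members were at least 2-fold lower, and of replication genes 0 of 23 members were higher and 22 lower in all 4 libraries (median log2 ratio −1.17).

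Members also varied among themselves. After each cell was thinned to 5000 UMIs, 2426 genes were ranked in each library by the variance over the mean, which chance sampling alone sets at 1 and whose median was 1.34 to 1.36. The 20 most variable were Mmp3, Slpi, Ccl2, Cxcl1, Cxcl2, Timp1, Apoe, Coch, Cxcl3, Lcn2, Igfbp4, Mgp, Krt17, Cxcl14, Cxcl10, Cxcl6, Ca4, Gsn, Fth1 and Tnc. Up to 100% of Krt17, 53.7% of Cxcl2 and 35.7% of Apoe in a library could be free RNA. Mmp3, stromelysin, was held by few cells: 16.8% and 18.4% of members in injected wounds, against 29.7% and 23.6% in uninjected wounds, had a UMI, and the top 10% of cells held 93.4% to 98.1% of its UMIs in every library. Coch, cochlin, was in 3.3% and 2.8% of members in injected wounds, against 8.2% and 3.6% in uninjected wounds. Timp1, in contrast, was in 98.7% to 100% of members. Ca4, a carbonic anhydrase of the cell surface, was at 1983 and 1264 CPM in injected wounds, against 571 and 546 CPM in uninjected wounds, and had a UMI in 60.1% and 45.2% of members in injected wounds, against 15.2% and 29.4% in uninjected wounds. Across cells of a library, Ca4 and Lcn2 were the most correlated pair of these 20 genes, with Pearson's r of 0.774 and 0.628 in injected wounds, against 0.626 and 0.681 in uninjected wounds. Timp1 and Lcn2 followed the same cells, at 0.618 and 0.464 in injected wounds, against 0.406 and 0.556 in uninjected wounds. Cxcl1 and Cxcl3 were correlated at 0.545 and 0.623 in injected wounds, against 0.544 and 0.486 in uninjected wounds. Igfbp4 and Cxcl14 were at 0.50 and 0.376 in injected wounds, against 0.558 and 0.385 in uninjected wounds. Lcn2 and Cxcl10, a chemokine induced by interferon, ran against each other in injected wounds, at −0.428 and −0.299, against −0.184 and −0.128 in uninjected wounds. These correlations are over 667 and 429 cells in injected wounds and 256 and 394 in uninjected wounds, which share their library and, after thinning, their depth.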

How the data were processed

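The deposited matrices give whole UMI counts of each gene in each barcode, with empty droplets still among the barcodes. The authors' counts came from Cell Ranger 7.2.0, per the file headers, or Cell Ranger 5.0.1, per the submitters' processing notes. Neither build nor annotation is given in the sources used here. Each matrix listed 23999 genes. Per the labels' protocols, tissue was minced, digested with enzymes, passed through a 40 µm strainer, treated to lyse red blood cells and optionally depleted of dead cells, which selects the cells that survive digestion.

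From the counts, barcodes were kept and classed by the rule given above (Python 3.11.15, numpy 2.4.6, scipy 1.17.1), and UMIs were summed per library and class, so that the library was the replicate. The sums were tested with edgeR 4.0.16 (quasi-likelihood test, R 4.3.3), using TMM scaling, the filterByExpr filter and no covariates, over the 2 injected and 2 uninjected libraries of a class. The difference of effects between classes had a block for each library. An adjusted p under 0.05 was the threshold. Standard errors came from the quasi-likelihood F statistic. CPM used the TMM-scaled totals of each fit. Marker values, and the levels and ratios of non-dividing beside dividing cells, used unscaled totals. The CPM of a gene therefore differs slightly between paragraphs. Shares were compared with exact permutation tests. Doublet scores came from Scrublet in scanpy 1.11.5 at 0.8% per 1000 barcodes. Keratinocyte barcodes had at least 1% of UMIs in Krt5 and Krt14 and under 0.1% in the collagen genes and Dcn, and numbered 682, 727, 269 and 726 (in the order injected 1, injected 2, uninjected 1, uninjected 2). The bound on free RNA took barcodes with at most 100 UMIs as its source and all S100a8 and S100a9 in members as free. The fits were tested on simulated data.

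Named genes were all that passed, filled to 15 in each direction by p where they had a symbol and a mean of 20 CPM in a group. In each list, the named genes were at most 6 of smallest p and 6 of highest mean. For differences of effects they were the 10 of smallest p, and between classes the 12 farthest apart in each direction. Some genes that these rules name are not reported here. The members and lists were chosen with earlier results of these data known. Alternatives changed scaling (RLE), tool (DESeq2 1.42.0), filters, thresholds of the rule, depth, doublets, leukocyte UMIs and the libraries used. Files of mature miRNAs were not used here.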

Additional observations from a re-analysis of the deposited data

How the results depend on the processing

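The count of genes that passed in non-dividing fibroblasts, 4, was 119 by DESeq2, 674 with no filter on low counts, 2 with each cell thinned to 1000 UMIs, 0 without members holding a Mki67 or Top2a UMI (1014 at an unadjusted p under 0.05), 9 with the replicate block and 6 to 622 when 1 library was left out, of which 482 of the 622 without uninjected 2 were lower. It stayed at 3 or 4 under the other 6 settings. In dividing fibroblasts, where 0 passed (edgeR), the count was 71 by DESeq2, 614 with no filter, 9 after thinning, 3 with at least 2% collagen UMIs and 0 to 340 with 1 library left out (13 without uninjected 1, 340 without uninjected 2). The count of differences of effects, 0 (edgeR), was 12 by DESeq2, 198 with no filter, 6 after thinning, 1 without doublet calls, 1 without cells holding 2 or more leukocyte UMIs and 57 to 104 with 1 library left out. The causes were not tested. With 1 library left out of a class fit, 1 group has 1 library, which is assumed to vary like the other group, and 1 residual degree of freedom remains. The difference in the dividing share, −6.22 points, was 0.0884 with cells thinned to 1000 UMIs, where at most 0.326% of fibroblasts met the division threshold, and −15.8 to 3.37 with 1 library left out (reversed without uninjected 2). The difference in the non-dividing share, 3.42 points, was 2.52 to 4.53 under all its settings. The 150 genes past 2-fold between the classes were 63 at 3-fold (7 higher and 56 lower). No named gene of the injected-over-uninjected comparison changed direction under the 15 settings. Thinning to 5000 UMIs and the list values under each setting were chosen after seeing the data. Replicate numbers were not treated as pairs across groups. Deviations from the group means correlated at −0.019 for the same number, a single value that cannot settle whether libraries were paired. With the replicate block the counts were 9 in non-dividing and 0 in dividing cells, and with no replicate block or library block 0 genes differed in effect. Members of uninjected 1 held 4163305 UMIs, the fewest, and so limit the precision for genes of low level there.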
